A study of Cunninghamia lanceolata with 3 samples.

Results

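Mitochondria keep a small genome of their own, which in seed plants codes for a few subunits of the respiratory chain and of the ATP synthase, for proteins that attach heme to cytochrome c, and for open reading frames of unknown function. The many other subunits of the same complexes are made from nuclear genes and imported, so each complex is built from both genomes. Most plant organelle transcripts lack a stable poly(A) tail, and a tail there usually marks an RNA for decay. Respiration in these complexes supplies the ATP with which a cambium divides and builds walls.

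The unigenes described here are assembled transcript sequences of Cunninghamia lanceolata (Chinese fir, a conifer). Their best protein hit matches a list of names used for mitochondrially encoded genes. Some of these names are also used for plastid genes, so the match does not settle the organelle. They were chosen by the hit text alone, with no use of the levels: names of numbered NADH dehydrogenase subunits, of cytochrome c oxidase subunits 1 to 3, of apocytochrome b, of ATP synthase subunits 1, 4, 6, 8 and 9, of cytochrome c biogenesis or maturation proteins and of numbered open reading frames, without those that name the chloroplast or plastoquinone. This gave 63 of 53590 unigenes, and no unigene was named as a maturase-related protein. Earlier results of these data were known when the choice was made. The unigenes come from vascular cambium, the dividing cell layer between wood and bark, taken as tangential cryosections from trees about 16 years old under natural conditions. There was 1 library for each of 3 stages: dormant, reactivating and active. The number of trees behind a library is not stated. Trees were 15 m tall and 12 cm in diameter. The RNA was captured on oligo(dT) beads and broken into fragments of about 200 bases, so the levels below are of organelle RNA that these beads retained, and the retained share was not measured.

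The libraries each held 5.84 to 5.85 M (mega) uniquely mapped reads on 49675 to 50498 unigenes. With 1 library per stage no difference has a replicate check, and no p-value was computed. The range in parentheses after a ratio is a 95% exact counting interval, which covers the sampling of reads only. RPKM is the number of reads per kilobase of unigene, scaled to library size, a level that can be compared between unigenes. Markers of the labelled tissue were present. The WUSCHEL-type homeobox unigene had 13, 244 and 192 reads in dormant, reactivating and active cambium, 35 unigenes with a clavata name had 4170, 6040 and 7123 reads together, and no unigene carried the name of the cambial receptor TDR. The chlorophyll-binding markers of green bark had 6, 3 and 2 reads.

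The names did not all point to the mitochondrion. Gene ontology terms for the cell component named the mitochondrion for 14 of the 63 unigenes, the plastid, chloroplast or thylakoid for 16, and neither organelle for 33. All 11 unigenes whose best hit was in Cryptomeria japonica, a relative of Chinese fir, carried a plastid term, as did 5 of the 6 with a hit in Pinus koraiensis. Chloroplasts hold an NADH dehydrogenase-like complex whose subunits bear the same names, and a cytochrome c biogenesis protein of their own. The 63 are therefore given in 3 sets: 40 with a respiratory, ATP synthase or cytochrome c maturation name and no plastid term (the mitochondrial names), 7 open reading frames without a plastid term, and 16 with a plastid term. Of the 40 mitochondrial names, 22 were NADH dehydrogenase subunits (nad), 3 apocytochrome b (cob), 5 cytochrome c oxidase subunits (cox), 5 ATP synthase subunits (atp) and 5 cytochrome c maturation proteins (ccm). This division was made after the hit texts and terms had been seen, and neither uses the levels.

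The unigenes are short, from 153 to 2393 bases with a median of 446, against 323 over all unigenes. Several can be pieces of 1 transcript: subunit 2 and subunit 5 of the NADH dehydrogenase are each spread over 5 unigenes among the mitochondrial names. They are not independent of each other. Together the 63 held 4877, 5973 and 2827 reads in dormant, reactivating and active cambium, which is 0.0834%, 0.102% and 0.0484% of all reads. In each library 62 of the 63 had a read. In bulk tissue, fewer cells that hold these transcripts and less organelle RNA per cell cannot be told apart.

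In the 3 libraries side by side, the active one was the lowest for most of these unigenes. Among the 44 with at least 50 reads in all, the RPKM was lowest in the active library in 37, where 31.0% of all unigenes with that many reads had this order. This held for 23 of 27 mitochondrial names, 5 of 6 open reading frames and 9 of 11 unigenes with a plastid term. The reactivating library was the highest in 16 of the 27 mitochondrial names and in 2 of the 11 with a plastid term, where 33.5% of all unigenes had this order. The level was dormant above reactivating above active in 8 of the 11 with a plastid term, in 11 of the 27 mitochondrial names and in 21.0% of all unigenes. These orders count differences of any size, those within counting error included.

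**Figure D1:**
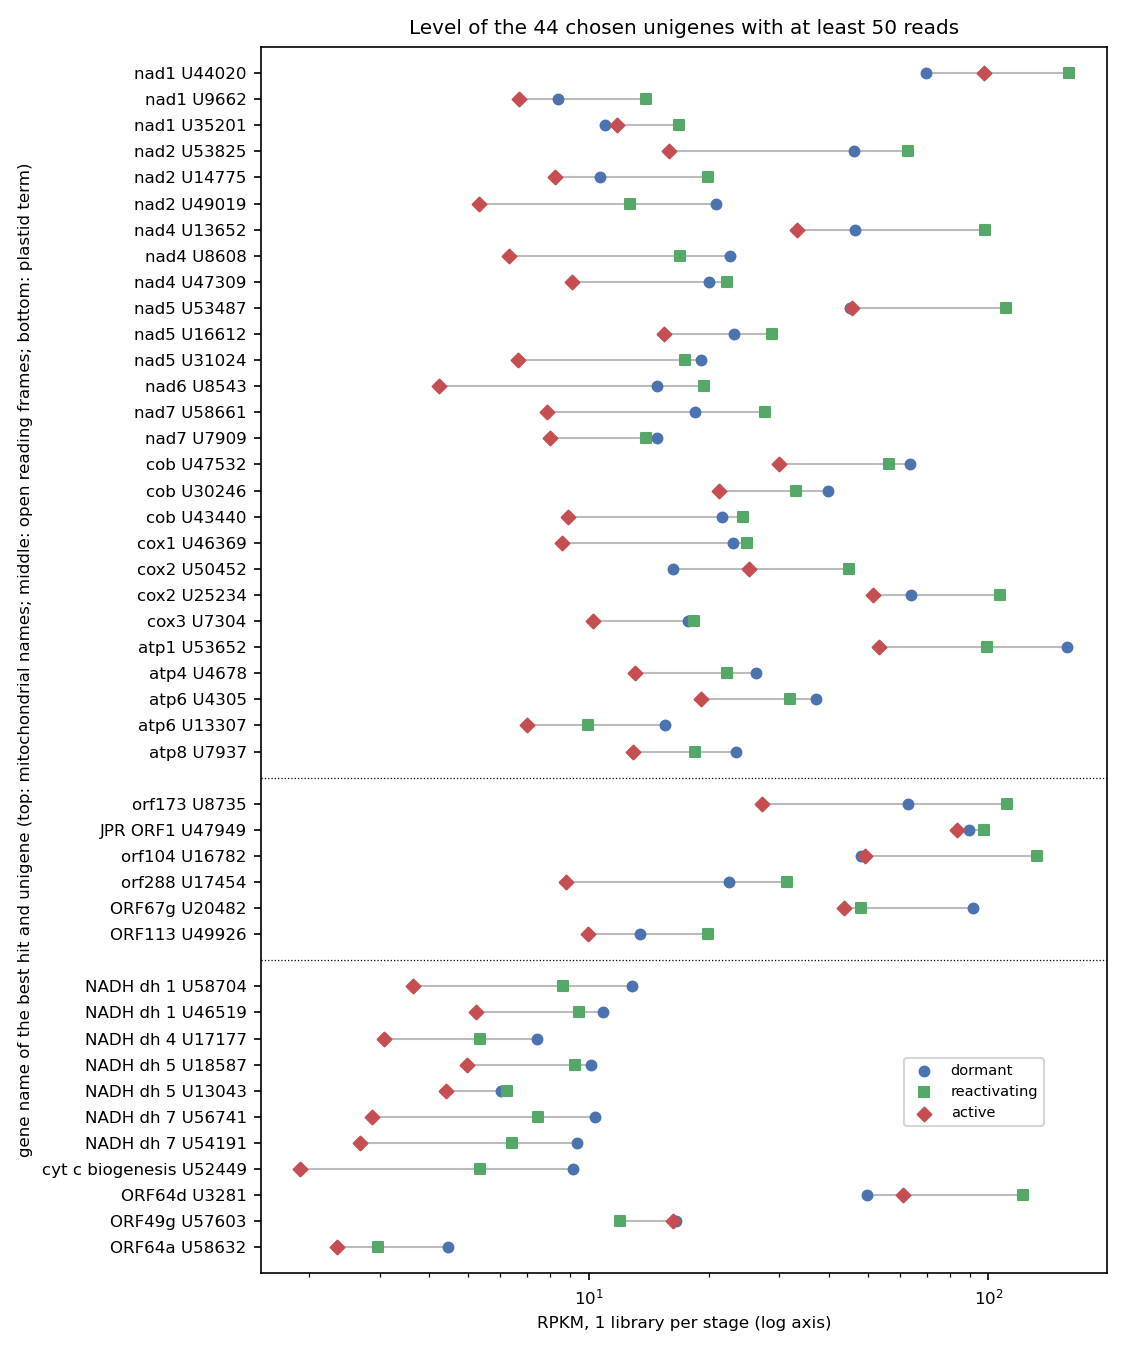
RPKM (log axis) of the 44 chosen unigenes with at least 50 reads over the 3 libraries, with 1 point per library and a grey line from the lowest to the highest. Each row is 1 unigene, labelled with the gene name of its best hit and its number (U for Unigene), with mitochondrial names at the top, open reading frames in the middle and unigenes with a plastid term at the bottom. The active library gives the lowest of the 3 points in 37 of the 44 rows.

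Complex I, the NADH dehydrogenase, takes electrons from NADH and pumps protons, and its mitochondrially encoded subunits made up the largest class of names. Its 22 unigenes had 1410, 2234 and 926 reads together in dormant, reactivating and active cambium. The active library was 2.41-fold lower than the reactivating one in these summed reads (2.23 to 2.60), and the reactivating library was 1.58-fold higher than the dormant one (1.48 to 1.69).

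The subunits 1, 2, 4 and 5 form part of the proton-pumping membrane arm. Subunit 1 had most of its reads in Unigene44020, with an RPKM of 69.9, 159 and 97.4 in dormant, reactivating and active cambium. It was 2.27-fold higher in the reactivating library than in the dormant one (1.84 to 2.81) and 1.63-fold lower in the active library than in the reactivating one (1.35 to 1.97). The other 2 unigenes of subunit 1, Unigene9662 and Unigene35201, had 30, 50 and 24 reads and 15, 23 and 16 reads in the same order of libraries. All 3 were highest in the reactivating library, although the interval of Unigene35201 included a ratio of 1 in every comparison. In summed reads subunit 1 was 1.26-fold higher in the active library than in the dormant one (1.03 to 1.55), the opposite order to the class as a whole, which was 1.52-fold lower (1.40 to 1.65).

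Subunit 2 had its highest level in Unigene53825, at an RPKM of 46.1, 62.8 and 15.9 in dormant, reactivating and active cambium. In the active library it was 3.96-fold lower than in the reactivating one (2.95 to 5.39) and 2.91-fold lower than in the dormant one (2.14 to 4.0). Unigene14775, with 52, 97 and 40 reads, was also highest in the reactivating library. Unigene49019 had 51, 31 and 13 reads and was highest in the dormant library, with a reactivating to dormant ratio of 0.608 (0.376 to 0.968), which does not overlap the interval of Unigene53825 for the same ratio (1.11 to 1.67). Unigene52864, with 19, 11 and 16 reads, was the only measured mitochondrial name with a higher level in the active than in the reactivating library, and its ratio of 1.46 (0.635 to 3.47) is not distinct from 1 at this depth. With 46 reads in all it is named here with its values known.

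Subunits 4 and 5 showed the same split between unigenes of 1 name. For subunit 4, Unigene13652 had 211, 445 and 151 reads in dormant, reactivating and active cambium and was 2.11-fold higher in the reactivating library than in the dormant one (1.79 to 2.50). Unigene8608 had 68, 51 and 19 reads, with a ratio of 0.750 (0.511 to 1.09) in that comparison. For subunit 5, Unigene53487 had 157, 384 and 158 reads, 2.45-fold higher in the reactivating than in the dormant library (2.03 to 2.96), against 1.24 (0.980 to 1.57) for Unigene16612 with 134, 166 and 89 reads. Also with at least 50 reads, Unigene47309 (subunit 4) had 44, 49 and 20 reads, at a ratio of 1.11 (0.726 to 1.71). Unigene31024 (subunit 5) had 23, 21 and 8 reads, at 0.913 (0.481 to 1.73). The intervals of Unigene13652 and Unigene53487 overlap none of the others given here for the same subunit. Between the active and the reactivating library the unigenes of each name lay closer: Unigene13652 and Unigene8608 were 2.94-fold (2.44 to 3.56) and 2.68-fold (1.56 to 4.81) lower in the active library, and Unigene53487 and Unigene16612 were 2.43-fold (2.01 to 2.94) and 1.86-fold (1.43 to 2.44) lower.

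Subunit 6 belongs to the membrane arm, and subunits 7 and 9 to the arm that reaches into the matrix. Unigene8543, named for subunit 6, had 35, 46 and 10 reads in dormant, reactivating and active cambium and was 4.59-fold lower in the active than in the reactivating library (2.29 to 10.2). For subunit 7, Unigene58661 had an RPKM of 18.4, 27.6 and 7.86 and was 3.51-fold lower in that comparison (2.65 to 4.71). Unigene7909, also named for subunit 7, had 14.9, 13.9 and 8.01 and was 1.74-fold lower (1.13 to 2.72). Subunits 4L and 9 were carried by unigenes with too few reads to tell the libraries apart.

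Complex III passes electrons from ubiquinol to cytochrome c, and apocytochrome b is its mitochondrially encoded subunit. Its 3 unigenes had 228, 209 and 108 reads together in dormant, reactivating and active cambium. The reactivating library stood at 0.916 of the dormant one (0.756 to 1.11), a difference within counting error. The active library was 1.93-fold lower than the reactivating one (1.53 to 2.46). The most abundant, Unigene47532, had 142, 126 and 67 reads, and Unigene30246 and Unigene43440 were lowest in the active library as well.

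Complex IV, cytochrome c oxidase, hands the electrons to oxygen, and its 3 large core subunits are mitochondrial. Subunit 2 was carried by Unigene25234, with an RPKM of 64.1, 107 and 51.5 in dormant, reactivating and active cambium, and by Unigene50452, with 16.2, 44.7 and 25.1. Both were highest in the reactivating library, by 1.67-fold (1.22 to 2.30) and 2.75-fold (1.93 to 3.98) over the dormant one. Subunit 1 (Unigene46369) had 48, 52 and 18 reads and subunit 3 (Unigene7304) had 135, 140 and 78 reads. For both of these the reactivating and dormant libraries differed by less than counting error, while the active library was 2.89-fold (1.66 to 5.24) and 1.79-fold (1.35 to 2.40) lower than the reactivating one. The remaining unigene, Unigene59021, had a best hit in the alga Rhodomonas salina and a single read, in the active library, and is named here with its values known.

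The ATP synthase uses the proton gradient to make ATP, and subunit 1 is the alpha subunit of its catalytic head. Unigene53652, named ATPase subunit 1, had 556, 350 and 188 reads in dormant, reactivating and active cambium, the most of any mitochondrial name in the dormant library. Its RPKM of 157, 99.1 and 53.3 was 1.59-fold lower in the reactivating than in the dormant library (1.39 to 1.82) and 1.86-fold lower in the active than in the reactivating library (1.55 to 2.23). Subunits 4, 6 and 8 belong to the membrane part and its stalk. Subunit 4 (Unigene4678) had 254, 216 and 127 reads, subunit 8 (Unigene7937) had 328, 258 and 181, and subunit 6 was carried by Unigene4305 with 93, 80 and 48 and by Unigene13307 with 42, 27 and 19. All 5 were in the order dormant, reactivating, active from high to low, and none reached a 2-fold difference between neighbouring stages. Between the reactivating and dormant libraries the interval included 1 in 3 of the 5: Unigene4678, Unigene4305 and Unigene13307. That of Unigene13307 also included 1 between the active and reactivating libraries. Between the active and dormant libraries the interval lay wholly below 1 in all 5. In summed reads the class was 1.37-fold lower in the reactivating than in the dormant library (1.26 to 1.49), and 1.23-fold lower without Unigene53652 (1.10 to 1.38).

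Set side by side, the nad and atp names differed in summed reads in the first step of the season. Between the reactivating and the dormant library the summed ratio was 1.58 (1.48 to 1.69) for the nad names and 1.44 (1.24 to 1.68) for the cox names, against 0.916 (0.756 to 1.11) for the cob names and 0.731 (0.671 to 0.796) for the atp names. Within cox the ratio was 2.10 (1.67 to 2.66) for subunit 2, with 1.08 (0.717 to 1.64) for subunit 1 and 1.04 (0.813 to 1.32) for subunit 3. The nad value drops to 1.22 (1.11 to 1.33) without the 3 nad unigenes that were 2-fold or more higher, which still does not overlap the atp interval. Unigene by unigene, the 16 measured nad names left were split, with 8 above a ratio of 1 and 8 below. Their median log2 ratio was 0.03, so the summed difference was not shared by all nad names. Between the active and the reactivating library the summed ratio was 0.415 (0.384 to 0.448) for nad, 0.516 (0.436 to 0.609) for cox, 0.517 (0.406 to 0.656) for cob and 0.605 (0.544 to 0.673) for atp. All 4 classes were lower in the active library, nad further than atp.

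**Figure D2:**
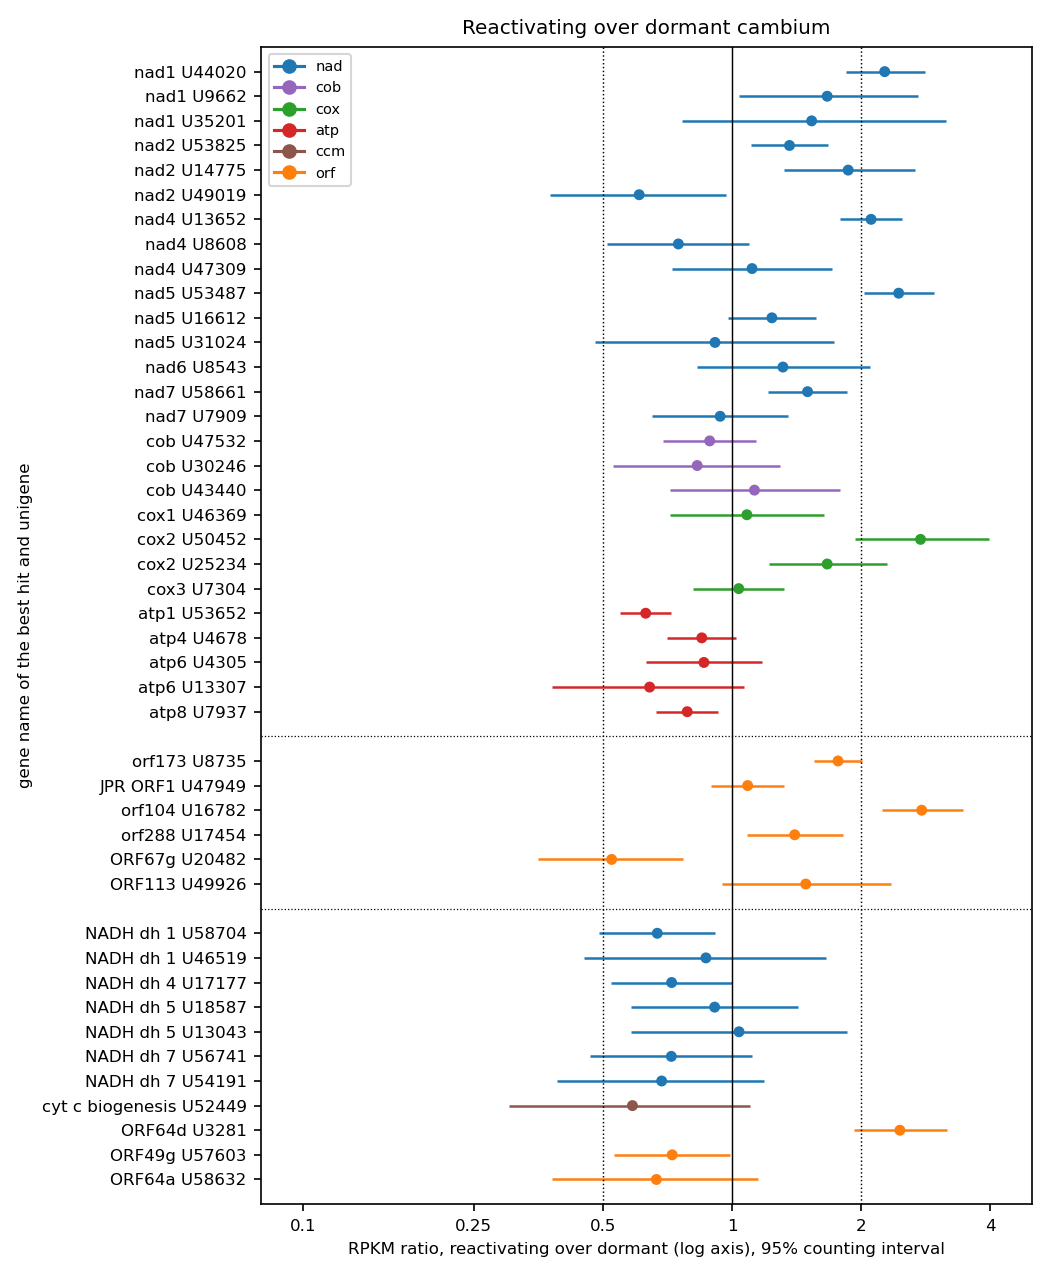
Ratio of RPKM in the reactivating library over the dormant library (log axis) for the 44 chosen unigenes with at least 50 reads, with 95% counting intervals and colours for the class of name; the solid line marks a ratio of 1 and the dotted lines 2-fold either way. The 5 atp unigenes lie left of 1, 3 of them with an interval that includes 1, and 6 unigenes (3 nad, 1 cox and 2 open reading frames) reach 2-fold to the right.

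Cytochrome c maturation proteins load heme onto cytochrome c, the carrier between complexes III and IV. The 5 unigenes of this class held 48, 35 and 13 reads together in dormant, reactivating and active cambium. The summed reads were 2.69-fold lower in the active than in the reactivating library (1.39 to 5.54), from few reads. Together with 8 nad and cox unigenes these 5 make up the 13 mitochondrial names with 1 to 46 reads over the 3 libraries, under the 50 reads set for naming in full.

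Among the open reading frames, orf173 (Unigene8735), named as mitochondrial in rice, had the most reads of all 63, with 368, 650 and 159 in dormant, reactivating and active cambium. It was 1.77-fold higher in the reactivating than in the dormant library (1.55 to 2.01) and 4.08-fold lower in the active than in the reactivating one (3.43 to 4.89). Its best hit had an expectation value of 1.2e-06, the highest among the measured unigenes, and no gene ontology term placed it in the mitochondrion. The orf104 unigene (Unigene16782, a hit in grape) had an RPKM of 47.9, 133 and 49.2 and was 2.77-fold higher in the reactivating than in the dormant library (2.23 to 3.45). The orf288 unigene (Unigene17454, a hit in beet), whose terms place it in the mitochondrial respiratory chain, had an RPKM of 22.4, 31.4 and 8.77. These 3 were highest in the reactivating library, and orf104 had nearly the same level in the active and dormant libraries, at a ratio of 1.03 (0.788 to 1.34).

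Of the remaining open reading frames, ORF67g alone was not highest in the reactivating library. Unigene47949, with a hit called JPR ORF1 in pear, had 205, 223 and 191 reads, and none of its 3 ratios was distinct from 1. ORF67g (Unigene20482, a hit in Pinus koraiensis) had 82, 43 and 39 reads and was highest in the dormant library, at 1.91-fold lower in the reactivating one (1.30 to 2.83). Unigene49926, with a hit to ycf68, a name given to a chloroplast reading frame, had 35, 52 and 26 reads, and the remaining one held 27 reads over the 3 libraries.

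The 16 unigenes with a plastid term were mostly of low level, with a median RPKM of 8.28, 6.35 and 3.36 in dormant, reactivating and active cambium, against 16.995, 17.9 and 7.94 for the mitochondrial names. The 9 NADH dehydrogenase subunits among them had 411, 313 and 156 reads together. They were 1.31-fold lower in the reactivating than in the dormant library (1.13 to 1.53), where the 22 nad names were 1.58-fold higher, and 2.0-fold lower in the active than in the reactivating one (1.65 to 2.44). Subunit 1 was carried by Unigene58704 with 106, 71 and 30 reads and by Unigene46519 with 23, 20 and 11, and subunit 7, in Unigene56741 and Unigene54191, had 54, 39 and 15 and 35, 24 and 10 reads.

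ORF64d (Unigene3281) stood apart in this set. It had 91, 224 and 112 reads in dormant, reactivating and active cambium, at an RPKM of 49.5, 122 and 61.0. These reads covered 18.5%, 59.2% and 18.2% of its 314 bases, so in 2 of the libraries they were piled on a small part of the sequence. ORF49g (Unigene57603) had 102, 74 and 100 reads and was the only one of the 44 whose level in the active library was at least 1.3 times that in the reactivating one, at a ratio of 1.35 (0.992 to 1.85).

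**Figure D3:**
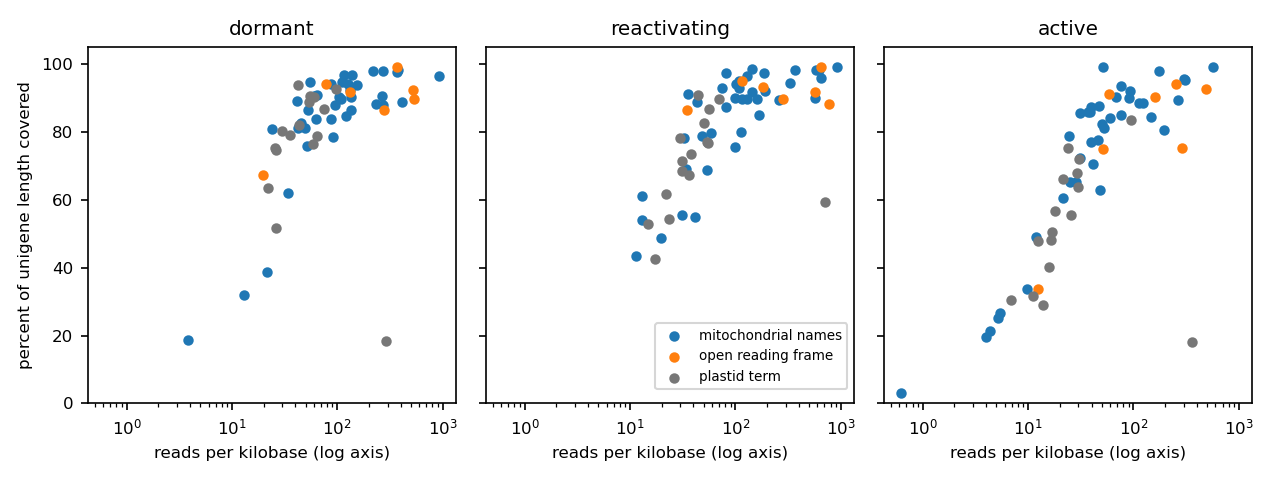
Percent of each unigene's length covered by reads against reads per kilobase (log axis) in dormant, reactivating and active cambium, for the chosen unigenes with a read, coloured by set. Coverage climbs with depth in all 3 panels, and ORF64d is the point with many reads and low coverage, at 18.5%, 59.2% and 18.2%.

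The reads of most other unigenes were spread along them. The median coverage of the 40 mitochondrial names was 89.0%, 89.7% and 84.1% in dormant, reactivating and active cambium, and that of the set with a plastid term was 79.6%, 72.3% and 52.9%. Over all unigenes the median was 86.0%, 86.9% and 86.3%.

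The comparison of the active with the reactivating library asks what differs once growth is in full course. Of the 63 unigenes, 49 reached 20 reads over the 2 libraries, and 22 of these were 2-fold or more lower in the active library, while 0 were higher by as much. Over all 36079 unigenes measured, 5.14% were 2-fold or more lower and 6.76% were higher by as much. The median log2 ratio was -0.92 for the 49, against -0.06 for all. The counting interval lay wholly below 1 in 36 of the 49 and wholly above 1 in 0, against 19.9% and 15.6% of all unigenes. By set, 14 of 29 mitochondrial names, 3 of 6 open reading frames and 5 of 14 unigenes with a plastid term were 2-fold or more lower. By class, 11 of 17 nad, 2 of 4 cox, 1 of 3 cob and 0 of 5 atp names were. Summed RPKM over the 63 was 923 in the active library against 1860 in the reactivating one (ratio 0.496).

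**Figure D4:**
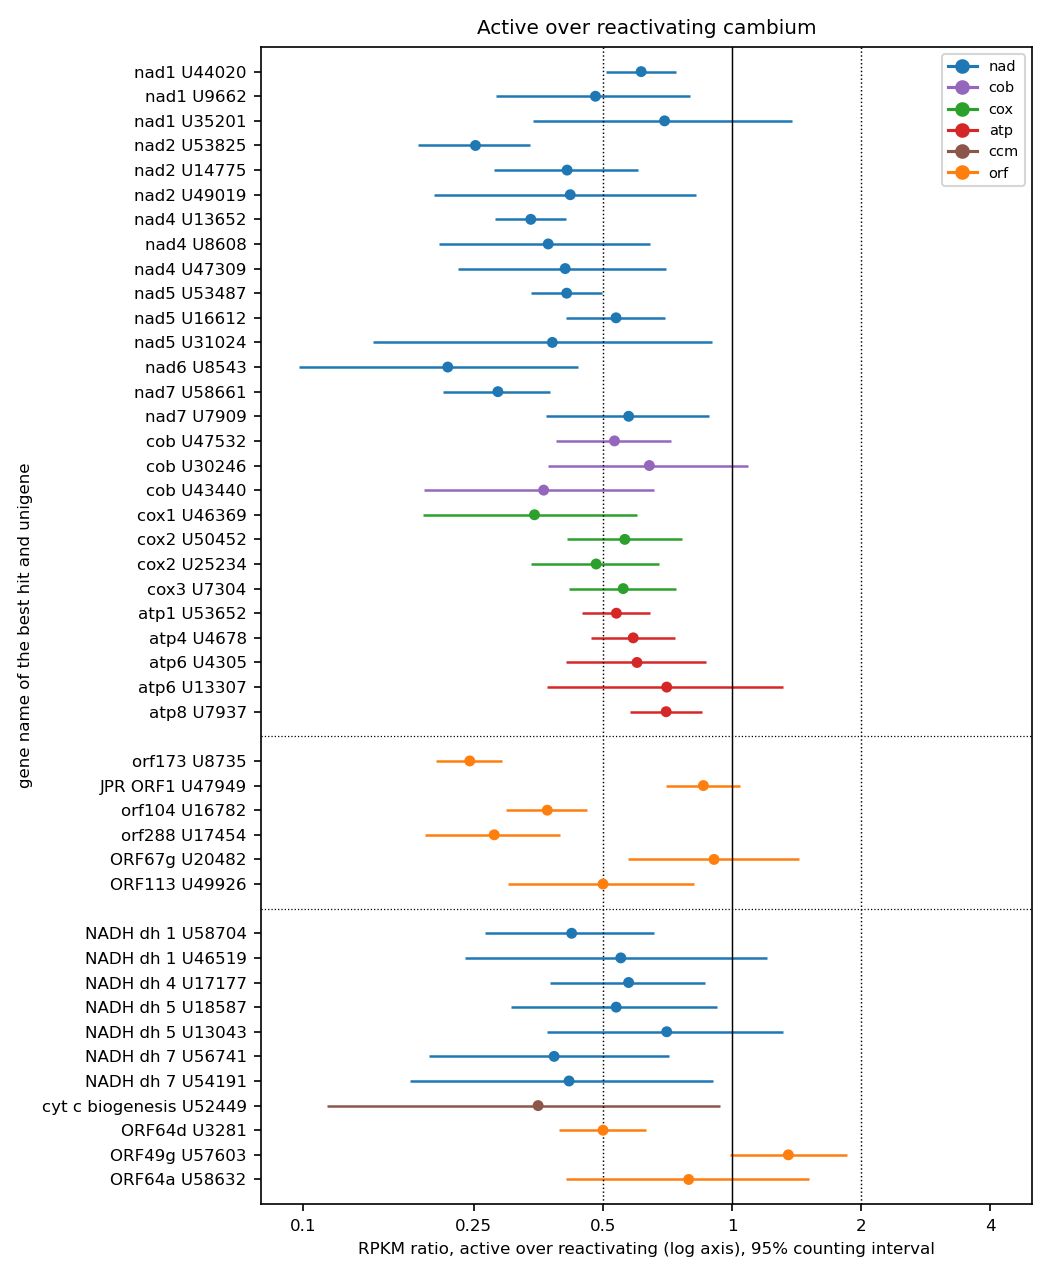
Ratio of RPKM in the active library over the reactivating library (log axis) for the 44 chosen unigenes with at least 50 reads, with 95% counting intervals and colours for the class of name; the solid line marks a ratio of 1 and the dotted lines 2-fold either way. All 27 mitochondrial names shown lie left of 1, and ORF49g, with a plastid term, is the point to the right at 1.35.

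Taken as lists, nuclear genes of the same organelle did not stand this low in the active library. Of 10 unigenes for nuclear-encoded respiratory subunits and alternative oxidases, 0 were 2-fold or more lower or higher in the active than in the reactivating library (median log2 ratio -0.15), and their summed reads were 1682 and 1852. Over all unigenes 5.14% were lower and 6.76% higher by as much. The gamma chain of the ATP synthase, which turns inside its catalytic head, had an RPKM of 212, 186 and 199 in Unigene42991 and 239, 248 and 247 in Unigene33634 across the dormant, reactivating and active libraries. Alternative oxidases, which bypass complexes III and IV, had 49, 120 and 92 reads (Unigene14479) and 72, 173 and 110 reads (Unigene3627). Unigene3627 had the lowest active to reactivating ratio of this list, at 0.637 (0.497 to 0.813), within the range of single atp names. Of 22 unigenes of the tricarboxylic acid cycle, a list that also took in cytosolic relatives, 0 were 2-fold or more apart between the active and reactivating libraries (median -0.12). Lists this short cannot set a count of 0 apart from the shares over all unigenes. Summed reads were 0.909 of the reactivating library for the nuclear respiratory list (0.851 to 0.972) and 0.943 for the cycle list (0.909 to 0.979), against 0.478 for the mitochondrial names (0.451 to 0.505).

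Other plastid-encoded transcripts, matched by names such as photosystem subunits and the plastid RNA polymerase, were also lower in the active library. Their 47 unigenes had 3433, 2679 and 1870 reads in dormant, reactivating and active cambium, 1.43-fold lower in the active than in the reactivating library (1.35 to 1.52) and 1.28-fold lower in the reactivating than in the dormant one (1.22 to 1.35). Of 31 measured, 6 were 2-fold or more lower in the active than in the reactivating library and 2 were higher by as much (median -0.22). The interval included 1 in 24 of the 31. The 2 unigenes with the most reads, both named for the RNA polymerase beta' subunit, had 222 against 454 and 164 against 463 reads in these 2 libraries. Without the RNA polymerase names the list was 1.38-fold lower (1.22 to 1.565). Pentatricopeptide proteins, which bind, edit and splice organelle RNA, had 2506, 3319 and 2375 reads over 131 unigenes, of which 38 were measured, with 2 higher and 2 lower by 2-fold or more in the active library (median -0.08). The shares over all unigenes in this comparison are the 6.76% higher and 5.14% lower given above. The pentatricopeptide unigene with the most reads, Unigene54654, had 247, 976 and 502 reads and was 3.95-fold higher in the reactivating than in the dormant library (3.43 to 4.56). A list of mitochondrial carriers and import proteins had 7 unigenes with 1570, 1047 and 965 reads, led by the carrier RIM2 (Unigene42674) with 1082, 568 and 525. The 2 unigenes named as mitochondrial ribosomal proteins had 51, 51 and 37 reads together, but ran in opposite directions. The S12 unigene (Unigene51729) had 39, 28 and 15 reads and was 2.60-fold lower in the active than in the dormant library (1.40 to 5.07). The L11 unigene (Unigene8397) had 12, 23 and 22 reads, and its intervals included 1 in every comparison.

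**Figure D5:**
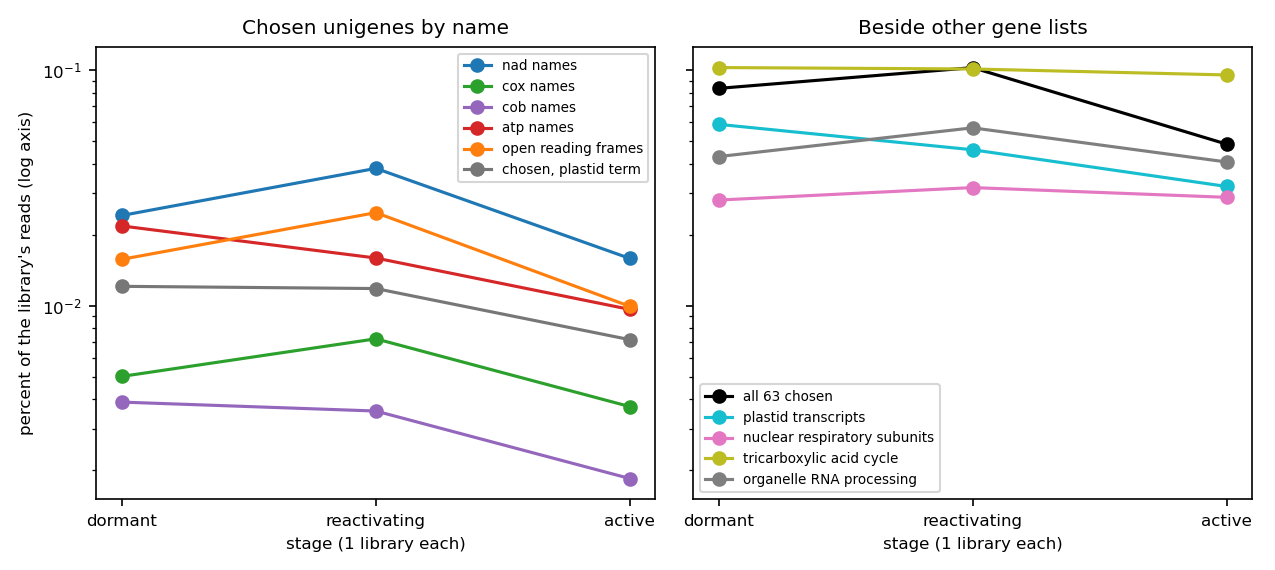
Summed reads as a percent of each library (log axis) in dormant, reactivating and active cambium, for the chosen unigenes by class (left) and for all 63 beside other gene lists (right). The nad names and open reading frames are highest in the reactivating library and the atp names in the dormant one, and all 63 together are at 0.0484% in the active library while the nuclear respiratory list lies between 0.0280% and 0.0317%.

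Levels of tissue markers also differed in this comparison. Markers of differentiating xylem (42 unigenes of cellulose synthase catalytic subunits, laccases and cinnamyl alcohol dehydrogenases) held 21400 reads in the active library against 1951 in the reactivating one, with 29 of 37 measured 2-fold or more higher in the active library, and 0 and 6 of the 42 at 0 reads. Cambium markers had 8368 and 7708 reads in the active and reactivating libraries, and the higher sum came from the 35 clavata names, with 7123 and 6040. The other cambium markers were lower in the active library. The WUSCHEL-type unigene had 192 and 244 reads, the 3 aintegumenta names 691 and 935, and the 6 cyclin names 362 and 489. Whether the make-up of the sampled tissue changed was not tested, nor was its part in the lower organelle levels.

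The comparison of the reactivating with the dormant library asks what differs when growth resumes. Of 54 measured unigenes, 6 were 2-fold or more higher in the reactivating library and 0 were lower by as much, where 16.9% and 13.8% of all unigenes were. The share of 11.1% among the chosen unigenes that were higher is below that of all unigenes. The 6 were Unigene44020 (subunit 1), Unigene13652 (subunit 4) and Unigene53487 (subunit 5) of the NADH dehydrogenase, Unigene50452 (subunit 2 of the oxidase), orf104 and ORF64d. The median log2 ratio was -0.11, against 0.07 for all unigenes, while summed RPKM was 1860 in the reactivating library against 1476 in the dormant one (ratio 1.26). The median was above 0 in some alternatives, at 0.12 with a minimum of 100 reads and 0.12 without the unigenes with a plastid term, and was -0.02 for the mitochondrial names alone. The interval lay wholly above 1 in 13 and wholly below 1 in 7 of the 54, against 30.7% and 25.2% of all unigenes. Xylem markers held 1951 reads in the reactivating library against 5635 in the dormant one. Of 30 measured xylem markers, 20 were 2-fold or more lower in the reactivating library and 7 were higher by as much. The phloem list, 3 sucrose transporters, had 252 and 507 reads. Of these 3, 2 were 2-fold or more lower, while Unigene11789 had 229 and 243. The part of the xylem and phloem markers in these ratios was not tested.

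The active and dormant libraries, which each also enter 1 of the 2 comparisons above, differed in the same direction as the active and reactivating ones. Of 51 measured unigenes, 25 were 2-fold or more lower in the active library and 0 were higher by as much, where 13.8% and 18.1% of all unigenes were. The median log2 ratio was -0.999, against 0.01 for all. The interval was wholly below 1 in 32 of the 51 and wholly above 1 in 2, against 26.8% and 29.4% of all unigenes. The 2 were Unigene44020 (subunit 1 of the NADH dehydrogenase, 1.39-fold higher in the active library, 1.11 to 1.76) and Unigene50452 (subunit 2 of the oxidase, 1.55-fold higher, 1.04 to 2.31). The atp names were 2.26-fold lower in the active library in summed reads (2.04 to 2.50), the cob names 2.11-fold (1.67 to 2.68) and the cox names 1.34-fold (1.12 to 1.61). The nuclear respiratory list had 1682 reads in the active and 1639 in the dormant library. Xylem markers held 21400 reads in the active library against 5635 in the dormant one, with 30 of 37 measured 2-fold or more higher, and cambium markers 8368 against 4910. Their part in the lower organelle levels was not tested.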

How the data were processed

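Oligo(dT)-captured RNA was fragmented, primed with random hexamers and sequenced by Illumina, per the labels' protocols. Each deposited table gives, per the file headers, the count of uniquely mapped reads for unigenes with at least 1 read, the RPKM, the percent of the length covered (coverage), the length in bases, gene ontology terms and the best protein hit. The count is whole and not normalised, and the deposited RPKM equalled the count scaled by length and by the header total in all rows (relative tolerance 1e-06). The assembler, the mapper, strand handling and the treatment of reads shared by close copies, which a unique count leaves out, are not stated by any label or header. Reads of a transcript and of its transfers to the nuclear genome cannot be told apart.

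Unigenes absent from a table count as 0 reads. Ratios are between deposited RPKM values, with a floor of 3 reads in place of 0. Intervals are 95% Clopper-Pearson intervals from the counts and cover counting error only, since PCR copies are not independent molecules. A unigene counts as measured from 20 reads over the compared pair, and is counted at 2-fold. Members with at least 50 reads over the 3 libraries may be named with all values, the others by class. Of other lists, the most abundant and the most extreme unigenes may be named, and of these only a part is given. Members and lists were chosen with earlier results of these data known. Alternatives were edgeR 4.0.16 TMM factors and DESeq2 1.42.0 size factors as scaling only, other minimums, folds and memberships. Intervals and calls were tested on simulated reads drawn with counting error alone. That test therefore does not cover variation between trees, in RNA capture or from PCR copies. Python 3.11.15, SciPy 1.17.1 and R 4.3.3 were used.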

Additional observations from a re-analysis of the deposited data

How the results depend on the processing

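Of 156 values recomputed under 14 alternatives, 129 stayed within counting error or within 1.5 times of the count reported, 25 moved further and 2 changed sign. Both of these are the median log2 ratio of the reactivating over the dormant library (-0.11), which was 0.12 with a minimum of 100 reads and 0.12 without the unigenes with a plastid term; the cause was not tested. The 129 include alternatives that could change almost nothing: requiring the name in every table, and dropping the algal hit, which held 1 read. For a median, counting error meant the interval of the single unigene nearest to it. No paired analysis was possible because each stage has 1 library, and for the same reason no replicate could be left out. In the reactivating over dormant comparison the count at least 2-fold higher (6) was 0 at 4-fold, 2 with the interval wholly beyond 2-fold and 2 with unigenes of at least 500 bases. The count at least 2-fold lower (0) was 1 with TMM factors and 1 with no minimum on reads. The ratio of summed RPKM (1.26) was 1.198 with TMM factors, 1.205 with DESeq2 size factors, 1.36 with a minimum of 100 reads, 1.18 with unigenes of at least 500 bases and 1.19 without names that are open reading frames alone. In the active over reactivating comparison the count at least 2-fold lower (22 of 49) was 10 of 23 with a minimum of 100 reads, 2 at 4-fold, 8 with the interval wholly beyond 2-fold, 14 of 27 with unigenes of at least 500 bases and 14 of 29 with the mitochondrial names alone, the last of these added after the data were seen. The ratio of summed RPKM (0.496) was 0.420 with unigenes of at least 500 bases. In the active over dormant comparison the count at least 2-fold lower (25 of 51) was 9 of 24 with a minimum of 100 reads, 2 at 4-fold, 7 with the interval wholly beyond 2-fold, 14 of 28 with unigenes of at least 500 bases and 14 of 31 with the mitochondrial names alone. The ratio of summed RPKM (0.625) was 0.687 with a minimum of 100 reads, 0.496 with unigenes of at least 500 bases, 0.574 without open reading frames and 0.590 with the mitochondrial names alone. Fewer unigenes enter at 100 reads, at 500 bases and under the narrower memberships. The summed nad, cox and atp ratios of the reactivating over the dormant library were 1.51, 1.37 and 0.695 with TMM factors. Read depth was low for part of the single unigenes. Of the 40 mitochondrial names, 13 had under 50 reads and 27 had at least 50, where 31946 of all 53590 unigenes had at least 50. Between the reactivating and dormant libraries the counting interval included 1 in 20 of the 32 mitochondrial names measured, against 15976 of 36274 over all unigenes.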

Other observations

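Ribosomal proteins with a best hit in the cycad Cycas taitungensis, a set formed after the data were seen, are a further group of organelle-type names outside the 63. Plant mitochondria and plastids both encode a few of their own ribosomal proteins, and 5 of the 9 unigenes carried a plastid term. They had 661, 1050 and 854 reads together in the dormant, reactivating and active libraries. The reactivating library was 1.59-fold higher than the dormant one (1.44 to 1.75), and the active library was 1.23-fold lower than the reactivating one (1.12 to 1.35). Of the 9, 1 was at least 2-fold lower in the active than in the reactivating library, where 5.14% of all unigenes were: the S4 unigene (Unigene51692), with 17 reads in the active and 39 in the reactivating library. The S10 unigene (Unigene48741) had 173, 251 and 191 reads, and the S11 unigene (Unigene56169) had 146, 291 and 235.

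A further 161 unigenes outside the 63 carry a gene ontology term for the mitochondrion. Of the 156 measured, against 6.76% higher and 5.14% lower among all unigenes, 1 was at least 2-fold higher and 1 at least 2-fold lower in the active than in the reactivating library, with a median log2 ratio of -0.00 and summed reads of 36098 and 38295.

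The 6 unigenes at least 2-fold higher in the reactivating than in the dormant library had best hits with expectation values from 4.0e-34 to 1.7e-09 and a median of 7.0e-15, against a range of 0 to 1.2e-06 and a median of 2.6e-45 for the other 48 measured, so the ranges overlap. Their median length was 440 bases, against 530 for the others. These values describe the 6 after their levels were seen.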
